A study of Mus musculus with 12 samples.

Results

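Vascular endothelial growth factors (VEGFs), their receptors and a group of receptors best known from blood vessel endothelium were examined in mouse bone marrow-derived macrophages that carried or lacked floxed alleles of Klf6, with and without TNF. The 9 genes are Vegfa, Vegfb, Kdr, Flt1, Nrp1, Nrp2, Pecam1, Eng and Tek. They were taken by symbol as a named set, and each of the 9 had a row in both deposited tables, out of 24465 gene identifiers in either table. Bone marrow-derived macrophages are cultured from precursors in the marrow. Total RNA was sequenced in 12 libraries, 3 in each of 4 groups: Klf6fl/fl:Lyz2cre with TNF (10 ng/ml for 6 h), Lyz2cre with TNF, Klf6fl/fl:Lyz2cre untreated and Lyz2cre untreated. All 4 groups carry the Lyz2cre allele, which places the Cre recombinase under the control of the lysozyme 2 gene of myeloid cells, so deletion of Klf6 depends on the activity of that gene. Klf6 is a member of the Krüppel-like family of transcription factors, which bind DNA through zinc fingers. The labels give no strain, sex or age for the mice and do not tie the 3 libraries of a group to different animals or cultures. The p-values therefore cover the spread among these libraries only, and that spread may be technical.

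VEGF-A is secreted by many cells, macrophages among them, and its gene is a textbook target of the hypoxia-inducible factors. It binds 2 receptor tyrosine kinases, VEGFR1, the product of Flt1, and VEGFR2, the product of Kdr, of which VEGFR2 is the main signalling receptor of endothelium. VEGF-B binds VEGFR1 and neuropilin-1, and not VEGFR2. VEGFR1 binds VEGF-A tightly but signals weakly, and a secreted form of it traps the ligand. VEGFR1 is also the VEGF receptor of monocytes. The neuropilins Nrp1 and Nrp2 are co-receptors that bind VEGFs and class 3 semaphorins and have little signalling activity of their own. Pecam1 encodes the junctional adhesion molecule PECAM-1, also found on platelets and leukocytes, Eng encodes endoglin, a co-receptor for ligands of the TGF-beta family, and Tek encodes TIE2, the receptor for angiopoietins.

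The start regions of Vegfa, Kdr and Flt1 are shown because the ligand and its receptor tyrosine kinases carry the main comparisons below. Each is read 5′ to 3′ on the strand of the gene, from 250 bases before to 50 bases after the start site in the RefSeq annotation of GRCm38.p6. Capitals mark 2 kinds of element that zinc-finger factors of the Sp and Krüppel-like families are known to bind, the GC box GGGCGG and the box CACCC, on either strand.
Vegfa, chr17:46032328-46032627, minus strand: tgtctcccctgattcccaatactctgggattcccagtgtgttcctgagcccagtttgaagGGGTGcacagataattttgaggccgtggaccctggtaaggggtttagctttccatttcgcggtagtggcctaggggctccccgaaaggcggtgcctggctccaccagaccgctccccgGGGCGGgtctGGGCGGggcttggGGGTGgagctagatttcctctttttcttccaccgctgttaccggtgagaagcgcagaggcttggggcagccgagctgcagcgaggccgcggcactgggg
Kdr, chr5:75978406-75978705, minus strand: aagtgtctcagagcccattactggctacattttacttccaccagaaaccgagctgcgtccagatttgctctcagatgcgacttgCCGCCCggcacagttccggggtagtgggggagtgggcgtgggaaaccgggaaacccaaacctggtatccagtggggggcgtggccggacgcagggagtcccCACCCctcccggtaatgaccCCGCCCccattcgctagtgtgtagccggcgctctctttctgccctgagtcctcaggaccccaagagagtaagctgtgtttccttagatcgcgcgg
Flt1, chr5:147725962-147726261, minus strand: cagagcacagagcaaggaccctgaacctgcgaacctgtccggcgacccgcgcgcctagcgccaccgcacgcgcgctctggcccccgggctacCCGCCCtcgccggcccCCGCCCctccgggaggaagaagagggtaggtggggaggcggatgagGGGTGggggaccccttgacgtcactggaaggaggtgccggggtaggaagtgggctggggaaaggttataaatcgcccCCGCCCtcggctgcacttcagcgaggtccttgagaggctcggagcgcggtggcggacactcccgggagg
The Vegfa window held 2 GC boxes and 2 CACCC boxes, the Kdr window 2 and 1, and the Flt1 window 3 and 1. No match of one element overlapped a match of the other in these windows. Of 32851 promoters of the same length, 35.7% held GGGCGG and 57.5% held CACCC on at least 1 strand, so neither element is rare. The hypoxia element cores ACGTG and GCGTG were found in 19.6% and 32.4% of all promoters. The Kdr window held GCGTG 2 times and the Flt1 window 1 time, and the Vegfa window shown held neither core. The table holds another Vegfa window, from 46025114 to 46025413 on the same strand, that held each core 1 time. That window lies inside the gene, whose ends are at 46016993 and 46032369. It is not printed because the last 30 of its bases were in no annotated transcript of the gene. The AP-1 site TGANTCA, present in 7.81% of all promoters, was in none of the 3 windows. G and C made up 62% of the Vegfa window, 60.7% of the Kdr window and 70.7% of the Flt1 window, against a median of 52.7% over all promoters. These matches describe letters in the reference sequence, and the deposited values say nothing of binding at them. Sequence outside the windows was not searched, so an element farther from a start site would be missed. Of the 9 genes, 8 had an entry in the promoter table.

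The libraries held 16925666 to 23386570 reads assigned to genes. Klf6 served as the check of the labels and was lower in the libraries labelled Klf6fl/fl:Lyz2cre, by a log2 change of -0.84 with TNF (limma, adjusted p = 4.3e-11) and -0.51 without (limma, adjusted p = 7.1e-10). Since the value covers the whole gene and the floxed exons are not given, it does not measure how far Klf6 was deleted. Values named normalized counts below are the authors' values, read counts divided by 1 size factor per library, and they were compared only within a table because the TNF-treated and the untreated libraries were normalized separately. Genotypes were compared on log2(normalized count + 1), which understates the change of low genes. A gene was tested when at least 3 of the 6 libraries of a table reached 1 CPM (reads scaled by the total of the library, in the usual CPM unit), and it was called at a Benjamini-Hochberg adjusted p below 0.05 over all genes tested.

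Genotype differences were common in these data. With TNF, 26.5% of 11717 tested genes were called higher in Klf6fl/fl:Lyz2cre cells and 30.8% lower. Without TNF, 27.6% of 12715 genes were called higher and 29.3% lower. Against that background, 3 of the 7 genes tested with TNF were higher (Vegfa, Vegfb and Nrp1), 3 were lower (Kdr, Flt1 and Nrp2), and Eng was not called. Without TNF, 4 of 8 were higher (Vegfa, Kdr, Pecam1 and Eng), 3 were lower (Vegfb, Nrp1 and Nrp2), and Flt1 was not called. The libraries of the genotypes did not overlap for 6 of the 7 genes tested with TNF and for 7 of the 8 tested without. Over all genes tested, this held for 63.2% with TNF and 62.3% without, so separate groups are no trait of the set. Scaling to total reads instead of the deposited size factors raised the median log2 change of all genes by 0.33 with TNF and by 0.13 without. Under it, 7038 genes were called higher and 1716 lower with TNF, in place of 3103 and 3608, and 5122 higher and 2408 lower without TNF, in place of 3508 and 3722. Changes of a size near these shifts are therefore tied to the choice of scaling.

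**Figure D1:**
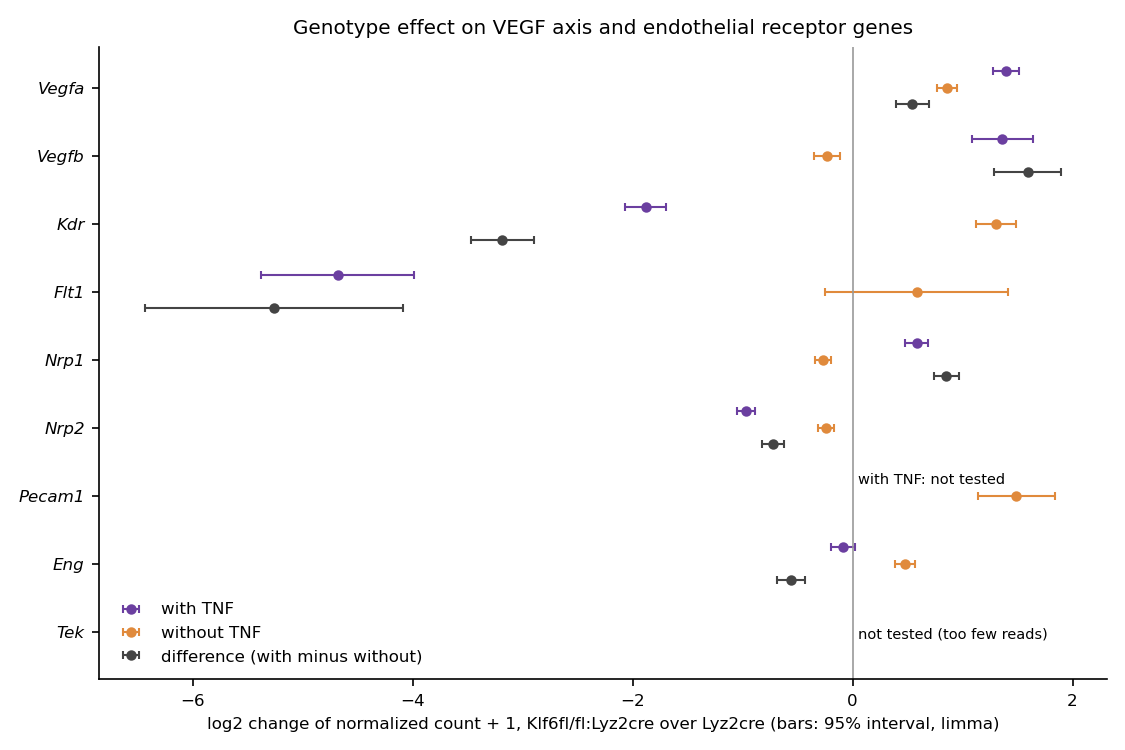
Log2 change of normalized count + 1, Klf6fl/fl:Lyz2cre over Lyz2cre, with TNF, without TNF, and the difference of the 2 effects (points: limma estimate from 3 libraries per group, bars: 95% interval). Kdr stands at -1.88 with TNF and 1.30 without, and Flt1 at -4.68 with TNF.

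Effects of genotype that differed between TNF-treated and untreated libraries were found throughout the set. The labels do not say whether these libraries were made together, so TNF and a batch cannot be told apart. Their marker sums differed too. Neutrophil markers summed to 9.63 CPM in Klf6fl/fl:Lyz2cre cells and 10.3 in Lyz2cre cells with TNF, against 268 and 297 without. The part of such differences was not tested. The effect of genotype differed between the conditions, by a test of that difference, for all 7 genes that could be tested, 3 of them more positive with TNF (Vegfa, Vegfb and Nrp1) and 4 more negative (Kdr, Flt1, Nrp2 and Eng). Over all 11425 genes tested for it, 26.5% were called more positive and 25.7% more negative. The sign of the effect itself was opposite, with a call in each condition, for Kdr, Vegfb and Nrp1. Under scaling to total reads Vegfb lost its call without TNF and kept the sign (log2 change -0.10, limma, adjusted p = 0.14). Kdr and Nrp1 kept opposite signs and both calls.

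Vegfa, encoding the ligand of both VEGF receptors, was higher in Klf6fl/fl:Lyz2cre cells in both conditions. With TNF it had 3065, 2810 and 3005 normalized counts in Klf6fl/fl:Lyz2cre libraries, against 1157, 1151 and 1061 in Lyz2cre libraries, a log2 change of 1.40 with a standard error of 0.0551 or 2.63-fold (limma, adjusted p = 2.1e-12). Without TNF it had 4727, 4903 and 5212 in Klf6fl/fl:Lyz2cre libraries, against 2822, 2776 and 2604 in Lyz2cre libraries, a log2 change of 0.85 with a standard error of 0.0438 or 1.81-fold (limma, adjusted p = 8.7e-12). Every Klf6fl/fl:Lyz2cre library lay above every Lyz2cre library of its table, and the effect was 0.54 larger on the log2 scale with TNF (limma, adjusted p = 2.5e-06). In these bulk RNA samples, fewer cells of a type and less RNA per cell cannot be told apart.

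Across all 4 groups the level of Vegfa, in CPM, was ordered without overlap between neighbours. Untreated Klf6fl/fl:Lyz2cre cells were highest at 261 ± 13.0 CPM (SD, n = 3), then TNF-treated Klf6fl/fl:Lyz2cre cells at 180.0 ± 8.15, untreated Lyz2cre cells at 132 ± 5.49 and TNF-treated Lyz2cre cells at 54.4 ± 3.22. The ratio of the TNF-treated to the untreated level was 0.690 in Klf6fl/fl:Lyz2cre cells and 0.414 in Lyz2cre cells. This ratio sets 2 separately normalized tables side by side and was not tested. Vegfa (ENSMUSG00000023951) lies on chromosome 17 from 46016993 to 46032369, minus strand, in GRCm38 and has 13 annotated transcripts, which a gene-level value does not separate.

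Vegfb, encoding the ligand that binds VEGFR1 and NRP1 but not VEGFR2, was higher in Klf6fl/fl:Lyz2cre cells with TNF and slightly lower without it. It had 435, 381 and 333 normalized counts in TNF-treated Klf6fl/fl:Lyz2cre libraries, against 128, 145 and 173 in TNF-treated Lyz2cre libraries, 2.57-fold higher (log2 change 1.36, standard error 0.131, limma, adjusted p = 1.7e-07). Without TNF it had 721, 676 and 693 in Klf6fl/fl:Lyz2cre libraries, against 801, 818 and 835 in Lyz2cre libraries, 1.17-fold lower (log2 change -0.23, limma, adjusted p = 0.002). Neither pair of groups overlapped, and the smaller of the effects is the one that lost its call under the other scaling. In CPM the level was 23.3 ± 3.11 with TNF and 36.7 ± 1.06 without in Klf6fl/fl:Lyz2cre cells, and 7.21 ± 1.05 with TNF and 39.4 ± 0.799 without in Lyz2cre cells. TNF-treated Lyz2cre cells thus held 0.183 of the untreated level, and TNF-treated Klf6fl/fl:Lyz2cre cells 0.634. The difference between the genotype effects was 1.59 on the log2 scale (limma, adjusted p = 1.6e-08). Vegfb (ENSMUSG00000024962) lies on chromosome 19 from 6982473 to 6987651, minus strand.

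**Figure D2:**
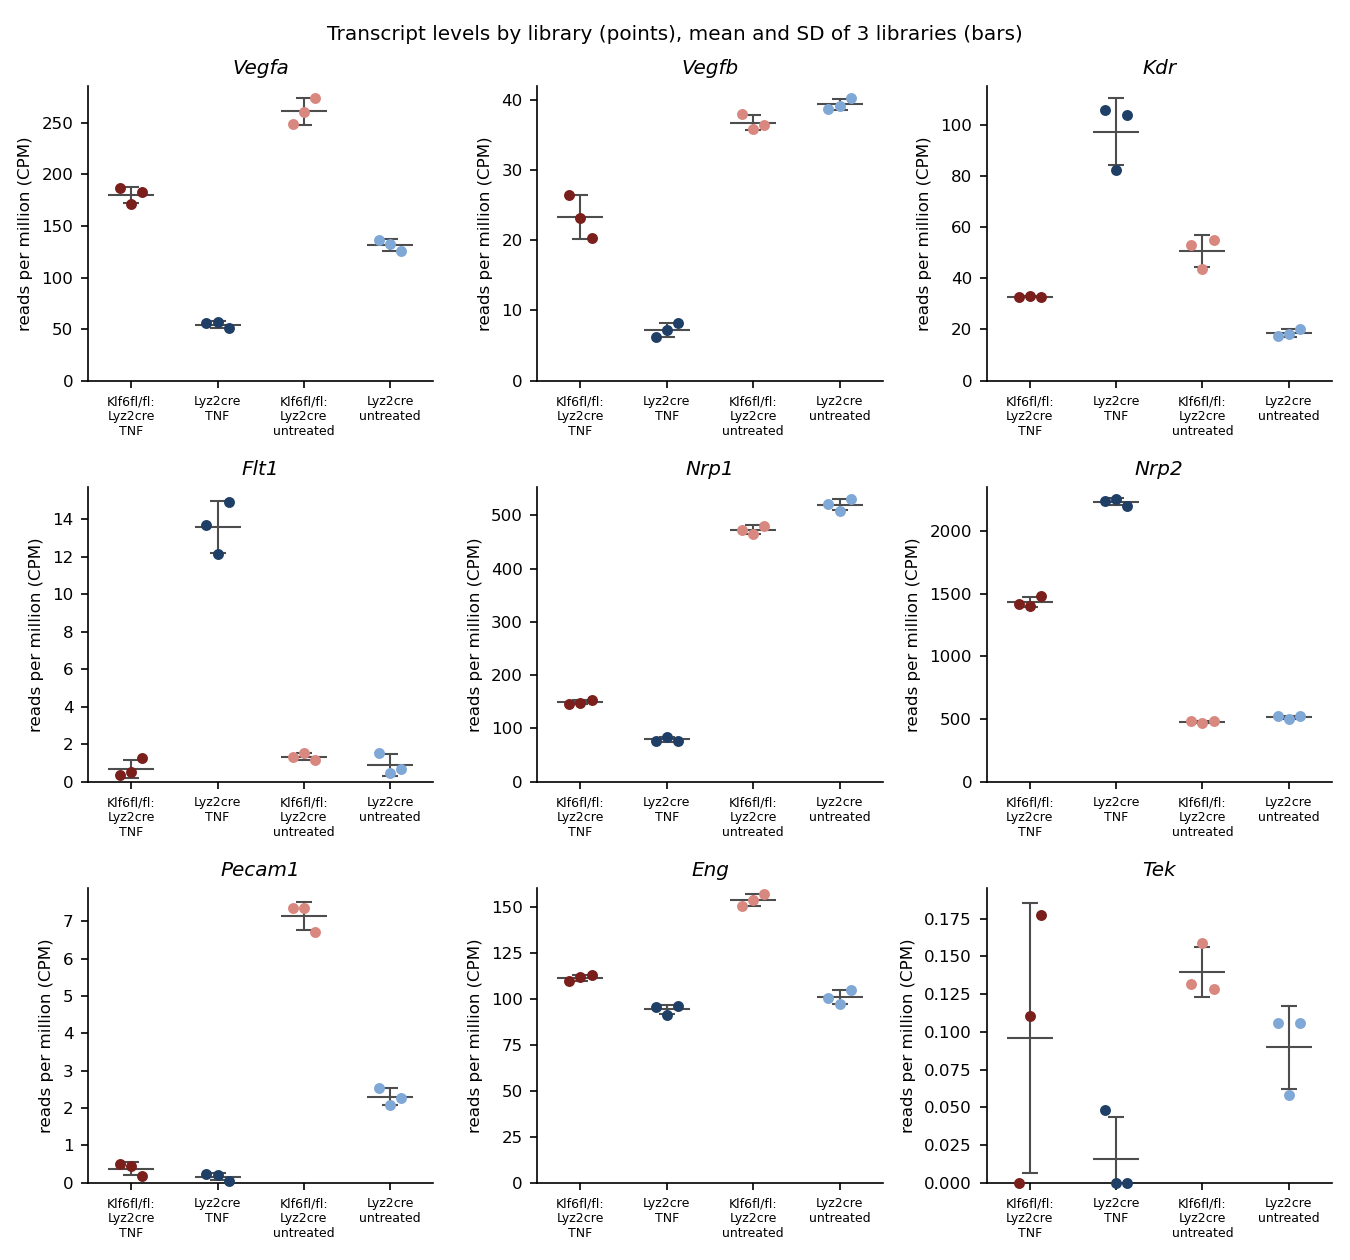
Level of each of the 9 genes in CPM (linear axis from 0) in the 3 libraries of each group (points), with group mean and SD (bars), TNF-treated groups left of untreated ones and Klf6fl/fl:Lyz2cre left of Lyz2cre in each. TNF-treated Lyz2cre libraries stand apart for Kdr (97.3 CPM on average) and Flt1 (13.6 CPM).

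Kdr, encoding VEGFR2, was lower in Klf6fl/fl:Lyz2cre cells with TNF and higher without it. With TNF the Klf6fl/fl:Lyz2cre libraries had 534, 545 and 540.45 normalized counts, against 2194, 1664 and 2172 in Lyz2cre libraries, 3.69-fold lower (log2 change -1.88, standard error 0.0865, limma, adjusted p = 1.6e-11). Without TNF they had 1011, 824 and 1045, against 361, 379 and 422 in Lyz2cre libraries, 2.47-fold higher (log2 change 1.30, standard error 0.0854, limma, adjusted p = 2.8e-10). The groups did not overlap in either table. The difference between the effects was -3.19 on the log2 scale (limma, adjusted p = 1.9e-13), and 1.35% of the 11425 genes tested for it had a difference as large in either direction. The TNF-treated Lyz2cre libraries held the highest Kdr level of the 4 groups at 97.3 ± 13.1 CPM, followed by untreated Klf6fl/fl:Lyz2cre cells at 50.6 ± 6.06, TNF-treated Klf6fl/fl:Lyz2cre cells at 32.8 ± 0.325 and untreated Lyz2cre cells at 18.6 ± 1.53, with no overlap between neighbours. The TNF-treated level was 5.22 times the untreated level in Lyz2cre cells and 0.648 times in Klf6fl/fl:Lyz2cre cells, so the genotypes lay on opposite sides of 1. Kdr (ENSMUSG00000062960) lies on chromosome 5 from 75932827 to 75978458, minus strand.

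Flt1, encoding VEGFR1, was highest in TNF-treated Lyz2cre cells and low in the other 3 groups. Those libraries had 285, 239 and 272 reads, against 6, 9 and 21 in TNF-treated Klf6fl/fl:Lyz2cre libraries, 30, 29 and 27 in untreated Klf6fl/fl:Lyz2cre libraries and 29, 8 and 13 in untreated Lyz2cre libraries. In normalized counts, TNF-treated Klf6fl/fl:Lyz2cre libraries had 5.60, 8.18 and 20.4, against 283, 246 and 312 in Lyz2cre libraries. The log2 change of -4.68 (standard error 0.327, 25.7-fold lower, limma, adjusted p = 3.4e-09) was the 10th lowest of the 11717 genes tested with TNF. With a pseudocount of 10 in place of 1 the log2 change was -3.82 (limma, adjusted p = 8.2e-11), so the size of the fold depends on the pseudocount. Flt1 passed the filter there through the 3 Lyz2cre libraries and 1 Klf6fl/fl:Lyz2cre library at 1.24 CPM.

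Without TNF the genotypes overlapped for Flt1. It passed the filter there through the 3 Klf6fl/fl:Lyz2cre libraries and 1 Lyz2cre library at 1.53 CPM. Klf6fl/fl:Lyz2cre libraries had 25.0, 28.9 and 21.9 normalized counts, against 31.7, 9.69 and 14.2 in Lyz2cre libraries, and the log2 change of 0.58 had a 95% interval of -0.25 to 1.41 (limma, adjusted p = 0.22). The first Lyz2cre library decides this result: without it the change was called (log2 change 1.03, limma, adjusted p = 0.031). The difference between the effects was -5.26 on the log2 scale with an interval of -6.44 to -4.09 (limma, adjusted p = 1.4e-07), and -4.19 with a pseudocount of 10 (limma, adjusted p = 2.7e-09). In CPM, TNF-treated Lyz2cre cells were at 13.6 ± 1.39, untreated Klf6fl/fl:Lyz2cre cells at 1.33 ± 0.190, untreated Lyz2cre cells at 0.894 ± 0.565 and TNF-treated Klf6fl/fl:Lyz2cre cells at 0.693 ± 0.481, and the last 3 of these overlapped with their neighbours. Flt1 (ENSMUSG00000029648) lies on chromosome 5 from 147561604 to 147726011, minus strand, with 6 annotated transcripts. Gene-level values do not separate the secreted form of VEGFR1 from the membrane receptor.

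The neuropilins moved in opposite directions between genotypes with TNF and in the same direction without it. Nrp1 had 2407, 2422 and 2528 normalized counts in TNF-treated Klf6fl/fl:Lyz2cre libraries, against 1601, 1703 and 1605 in Lyz2cre libraries (log2 change 0.58, standard error 0.0498, limma, adjusted p = 4.1e-08). Nrp2 had 23329, 23055 and 24391 in TNF-treated Klf6fl/fl:Lyz2cre libraries, against 46554, 45697 and 46030.0 in Lyz2cre libraries, 1.95-fold lower (log2 change -0.97, limma, adjusted p = 2.4e-12). Both genes were separated without overlap, in contrary directions.

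Without TNF both neuropilins were called slightly lower. Scaled to total reads the changes were smaller, at -0.14 for Nrp1 (limma, adjusted p = 0.0014) and -0.11 for Nrp2 (limma, adjusted p = 0.0096). Nrp1 had 8992, 8751 and 9129.6 normalized counts in Klf6fl/fl:Lyz2cre libraries, against 10767, 10648 and 10984 in Lyz2cre libraries (log2 change -0.27, limma, adjusted p = 1.4e-06). Nrp2 had 9153, 8762 and 9210.0 in Klf6fl/fl:Lyz2cre libraries, against 10802, 10449 and 10807 in Lyz2cre libraries (log2 change -0.24, limma, adjusted p = 7.8e-06). Of all genes tested without TNF, 48.1% had a change at least as large as that of Nrp1 and 51.8% at least as large as that of Nrp2. The differences between the effects were 0.85 for Nrp1 (limma, adjusted p = 5.4e-11) and -0.73 for Nrp2 (limma, adjusted p = 1.3e-10).

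TNF-treated and untreated levels of the neuropilins stood far apart in both genotypes. Nrp1 was at 149 ± 3.96 CPM with TNF and 473 ± 8.37 without in Klf6fl/fl:Lyz2cre cells, and at 79.3 ± 4.07 with TNF and 520 ± 10.6 without in Lyz2cre cells. Nrp2 was at 1435 ± 42.4 CPM with TNF and 477 ± 10.9 without in Klf6fl/fl:Lyz2cre cells, and at 2234 ± 27.3 with TNF and 514 ± 13.1 without in Lyz2cre cells. Nrp1 was thus lower and Nrp2 higher with TNF in each genotype, and the ratio was nearer to 1 in Klf6fl/fl:Lyz2cre cells for both genes (0.316 against 0.153 for Nrp1, and 3.01 against 4.34 for Nrp2). Per length, as reads per kilobase of annotated exon, scaled by library total as CPM are (RPKM), the level of Nrp2 divided by that of Nrp1 was 7.87 to 8.01 in TNF-treated Klf6fl/fl:Lyz2cre libraries, against 22.2 to 24.0 in TNF-treated Lyz2cre libraries. Without TNF this ratio was 0.827 to 0.841 in Klf6fl/fl:Lyz2cre libraries and 0.811 to 0.829 in Lyz2cre libraries. The size of the ratio depends on the length used: with the longest annotated transcript its mean was 5.22 in Klf6fl/fl:Lyz2cre cells and 15.3 in Lyz2cre cells with TNF, and 0.547 in Klf6fl/fl:Lyz2cre cells and 0.536 in Lyz2cre cells without. Nrp1 (ENSMUSG00000025810) lies on chromosome 8 from 128358604 to 128503363 and Nrp2 (ENSMUSG00000025969) on chromosome 1 from 62703285 to 62818695, both on the plus strand. The exons of Nrp1 share 80 bases with the microRNA gene Mir1903 on the same strand.

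Pecam1 was 2.80-fold higher in untreated Klf6fl/fl:Lyz2cre cells. The libraries had 140.04, 139 and 127 normalized counts, against 52.5, 43.6 and 47.0 in Lyz2cre libraries, with no overlap (log2 change 1.49, standard error 0.166, limma, adjusted p = 4e-07). With TNF, Pecam1 was too low to be tested, at 9, 8 and 3 reads in Klf6fl/fl:Lyz2cre libraries, against 5, 4 and 1 in Lyz2cre libraries. In CPM, its TNF-treated level was 0.377 ± 0.176 against an untreated level of 7.14 ± 0.372 in Klf6fl/fl:Lyz2cre cells, and 0.166 ± 0.0979 against 2.30 ± 0.230 in Lyz2cre cells. The low TNF-treated levels of both genotypes overlapped. Pecam1 (ENSMUSG00000020717) lies on chromosome 11 from 106654217 to 106750628, minus strand.

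Eng was higher in Klf6fl/fl:Lyz2cre cells without TNF and was not called with it. Without TNF it had 2867, 2897 and 2984 normalized counts in Klf6fl/fl:Lyz2cre libraries, against 2079, 2036 and 2173 in Lyz2cre libraries, 1.39-fold higher (log2 change 0.48, limma, adjusted p = 1.3e-08). With TNF it had 1803.5, 1843 and 1858.5 in Klf6fl/fl:Lyz2cre libraries, against 1981, 1854 and 2010.0 in Lyz2cre libraries (log2 change -0.09, 95% interval -0.19 to 0.02, limma, adjusted p = 0.16). The groups without TNF were apart and those with TNF overlapped. The direction with TNF depends on the scaling, since Eng was higher in Klf6fl/fl:Lyz2cre cells when scaled to total reads (log2 change 0.24, limma, adjusted p = 0.00035). It was called lower without the second TNF-treated Lyz2cre library (log2 change -0.12, limma, adjusted p = 0.049). The difference between the effects was -0.56 (limma, adjusted p = 2.3e-07) and was called, with a negative sign, under every alternative run. Eng (ENSMUSG00000026814) lies on chromosome 2 from 32646595 to 32682669, plus strand, and its exons share 61 bases with Fpgs on the opposite strand. The use of strand in counting is not given in the sources used here, so reads of that stretch cannot be assigned to Eng alone.

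Tek, encoding TIE2, had 0, 2 and 3 reads in TNF-treated Klf6fl/fl:Lyz2cre libraries and 1, 0 and 0 in TNF-treated Lyz2cre libraries. Untreated, it had 3 reads in each Klf6fl/fl:Lyz2cre library and 2, 1 and 2 in Lyz2cre libraries. No library exceeded 3 reads, so no genotype or TNF difference was detectable at this depth and no fold is given. Tek (ENSMUSG00000006386) lies on chromosome 4 from 94739289 to 94874976, plus strand.

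Per length, Nrp2 had the highest level of the 9 genes in both TNF-treated groups, at 121 ± 3.58 RPKM in Klf6fl/fl:Lyz2cre cells and 189 ± 2.31 RPKM in Lyz2cre cells. Vegfa followed at 42.0 ± 1.90 RPKM in TNF-treated Klf6fl/fl:Lyz2cre cells, and Eng at 23.3 ± 0.623 RPKM in TNF-treated Lyz2cre cells. Without TNF, Vegfa was first in Klf6fl/fl:Lyz2cre cells at 60.9 ± 3.02 RPKM, and Nrp1 was first in Lyz2cre cells at 53.1 ± 1.08 RPKM. The receptor tyrosine kinases were lower. Kdr was at 3.64 ± 0.0360 RPKM with TNF and 5.61 ± 0.672 without in Klf6fl/fl:Lyz2cre cells, and at 10.8 ± 1.46 with TNF and 2.06 ± 0.169 without in Lyz2cre cells. Flt1 exceeded 1 RPKM on average in TNF-treated Lyz2cre cells, at 1.01 ± 0.103, and was at 0.0513 to 0.0988 in the other 3 groups. The rank of Nrp1 depends on the length used: with the longest annotated transcript in place of the union of exons it was first in untreated Klf6fl/fl:Lyz2cre cells too.

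**Figure D3:**
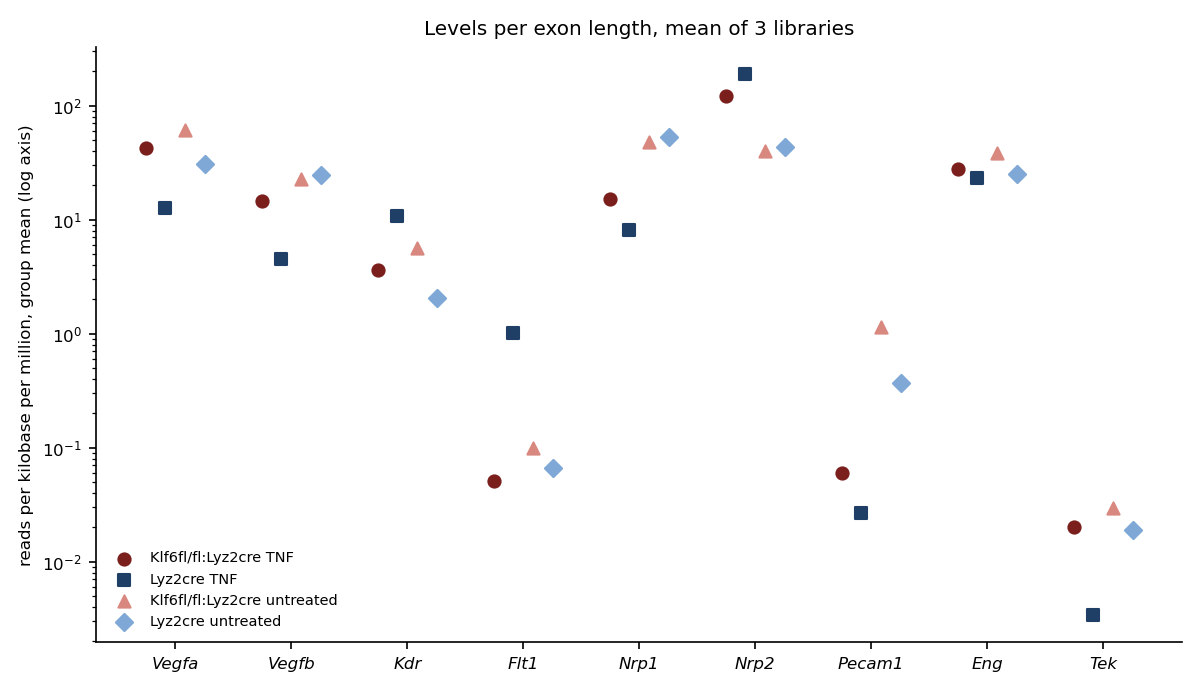
Mean level per exon length of the 9 genes in RPKM (log axis; symbols: the 4 groups, mean of 3 libraries each). Nrp2 is highest with TNF at 121 and 189 RPKM, Kdr and Flt1 are highest in TNF-treated Lyz2cre cells, and Tek lies below 0.03 RPKM in all groups.

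The remaining VEGF ligands and receptors, which are no members of the set, had group means under 6 CPM. With TNF, Vegfc, a ligand of lymphatic endothelium, was lower in Klf6fl/fl:Lyz2cre cells at 29.3 ± 3.85 against 107 ± 21.2 normalized counts in Lyz2cre cells (log2 change -1.82, limma, adjusted p = 2.4e-06). The placental growth factor gene Pgf, whose product binds VEGFR1, was also lower, at 12.7 ± 8.43 in Klf6fl/fl:Lyz2cre cells against 35.8 ± 7.19 in Lyz2cre cells (log2 change -1.63, limma, adjusted p = 0.0051). Vegfd and Flt4, the gene of the lymphatic receptor VEGFR3, were too low to be tested with TNF. Without TNF all 4 were called higher in Klf6fl/fl:Lyz2cre cells, with log2 changes of 2.09 for Vegfc, 3.04 for Vegfd, 2.27 for Pgf and 2.36 for Flt4. Each of them averaged under 1 CPM in untreated Lyz2cre cells and so passed the filter through the group in which it was higher. The genotype effect differed with TNF by -3.90 for Vegfc (limma, adjusted p = 3.1e-08) and by -3.89 for Pgf (limma, adjusted p = 6.2e-05). Pgf averaged under 1 CPM in Klf6fl/fl:Lyz2cre cells with TNF too, so in each condition it passed the filter mainly through the group in which it was higher.

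Among 14 semaphorin ligands, plexins and adaptors of the neuropilins, 7 were tested with TNF, of which 4 were higher and 3 lower, with a median log2 change of 0.39 against -0.01 over all genes. Without TNF 9 were tested, 4 higher and 3 lower, with a median of 0.14 against -0.01. Scaled to total reads, 4 were higher and 2 lower with TNF, and 5 and 2 without. The shares of all tested genes to set beside this list and those below were 26.5% higher and 30.8% lower with TNF. Without TNF they were 27.6% and 29.3%. Plxnd1, encoding the plexin that receives semaphorin 3E, was at 9021 ± 619 normalized counts in TNF-treated Klf6fl/fl:Lyz2cre cells against 6666 ± 184 in Lyz2cre cells, and at 3614 ± 185 against 9098 ± 224 without TNF. Its log2 changes of 0.43 with TNF (limma, adjusted p = 1.1e-06) and -1.33 without (limma, adjusted p = 5.4e-15) had opposite signs, as those of Nrp1 did. Sema3c, a neuropilin ligand, showed the reverse pattern, at 191 ± 15.7 in TNF-treated Klf6fl/fl:Lyz2cre cells against 420 ± 33.5 in Lyz2cre cells and at 72.1 ± 8.58 against 24.9 ± 10.5 without TNF. Sema4a was lower in both conditions, with log2 changes of -0.98 with TNF (limma, adjusted p = 5.8e-10) and -1.37 without (limma, adjusted p = 4.9e-12). Plxna1, which pairs with Nrp1 for semaphorin 3A, was higher in both, by 0.94 with TNF (limma, adjusted p = 3.3e-11) and 0.41 without (limma, adjusted p = 3.4e-08).

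Of the angiopoietins, ligands of TIE2, Angpt2 alone was high enough to be tested in both conditions. Angpt2, which acts mainly as an antagonist of TIE2, was higher in Klf6fl/fl:Lyz2cre cells in both conditions, at 72.8 ± 6.52 normalized counts against 34.5 ± 16.2 with TNF (log2 change 1.16, limma, adjusted p = 0.0028) and 359 ± 9.45 against 197 ± 7.69 without (log2 change 0.86, limma, adjusted p = 1.9e-07). The difference between these effects was not called (0.30 on the log2 scale, limma, adjusted p = 0.45). Angpt1, the main agonist, was at 59.7 ± 6.39 in untreated Klf6fl/fl:Lyz2cre cells against 8.18 ± 2.89 in Lyz2cre cells. Angpt4 was at 82.7 ± 15.7 in untreated Klf6fl/fl:Lyz2cre cells against 3.36 ± 0.979 in Lyz2cre cells. Both averaged under 1 CPM in Lyz2cre cells and were too low to be tested with TNF. Of the 6 genes listed beside Tek, 4 were tested without TNF, 3 of them higher and 1 lower, and 2 with TNF, 1 higher and 1 lower. The lower gene was Dok2, an adaptor of TIE2, at log2 changes of -0.25 with TNF (limma, adjusted p = 0.0091) and -0.46 without (limma, adjusted p = 2.1e-07), and scaled to total reads it lost its call with TNF.

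Of 12 partners of endoglin, 8 were tested with TNF, 1 higher and 6 lower, with a median log2 change of -0.25, and 10 without, 3 higher and 4 lower, with a median of -0.03. Scaled to total reads, the count with TNF was 3 higher and 2 lower and the median 0.08, and without TNF 4 and 3 and 0.10, so no direction is given for the list. Mmp14, encoding the membrane protease that releases soluble endoglin, was at 4837 ± 176 normalized counts in TNF-treated Klf6fl/fl:Lyz2cre cells against 11987 ± 395 in Lyz2cre cells, and at 1232 ± 100.1 against 151 ± 34.8 without TNF. Its log2 changes of -1.31 with TNF (limma, adjusted p = 2e-13) and 3.04 without (limma, adjusted p = 1.8e-13) differed by -4.35 (limma, adjusted p = 2.3e-15). The TGF-beta co-receptor gene Tgfbr3 and the ligand gene Tgfb3 were higher in untreated Klf6fl/fl:Lyz2cre cells, at log2 changes of 2.91 and 3.54 (limma, adjusted p = 6.8e-13 and 6.9e-13), and too low to be tested with TNF. Tgfbr2, encoding a signalling receptor of the same family, had a log2 change of -0.81 without TNF (limma, adjusted p = 1.6e-11). Bmpr2, encoding a receptor for bone morphogenetic proteins, had one of -0.56 with TNF (limma, adjusted p = 5.4e-07), and Acvrl1, encoding the receptor kinase ALK1, one of 0.28 with TNF (limma, adjusted p = 0.0013).

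Among 40 genes of signalling downstream of VEGF receptors, 36 were tested with TNF, 10 higher and 20 lower, with a median log2 change of -0.16 against -0.01 over all genes. Under scaling to total reads these counts were 18 and 10 and the median 0.17. Without TNF 38 were tested, 8 higher and 18 lower, with a median of -0.15, and 11 and 14 under that scaling with a median of -0.02. Src, the tyrosine kinase downstream of VEGFR2, was at 1142 ± 36.5 normalized counts in TNF-treated Klf6fl/fl:Lyz2cre cells against 4840 ± 309 in Lyz2cre cells, and at 268 ± 3.77 against 147 ± 12.7 without TNF. Its log2 changes of -2.08 with TNF (limma, adjusted p = 1.2e-14) and 0.86 without (limma, adjusted p = 1.8e-06) had the signs of those of Kdr. The same held for Ptk2, encoding focal adhesion kinase, at -0.94 with TNF (limma, adjusted p = 7.4e-08) and 0.47 without (limma, adjusted p = 2.2e-05). Ptk2 and Src were chosen for this comparison after their values were seen. Prkcb, a protein kinase C gene, had the contrary pattern, at 1.00 with TNF (limma, adjusted p = 1.3e-08) and -0.40 without (limma, adjusted p = 1.7e-06). The heat shock protein gene Hspb1 and the sphingosine kinase gene Sphk1 were higher in untreated Klf6fl/fl:Lyz2cre cells by 3.32 and 3.28 (limma, adjusted p = 3e-11 and 6.6e-08), from averages under 1 CPM in Lyz2cre cells.

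Genes induced by hypoxia, the class to which Vegfa belongs, were mostly higher in Klf6fl/fl:Lyz2cre cells. In the same cells the summed level of 12 stromal markers was higher in both conditions (199 against 45.2 CPM in Lyz2cre cells with TNF, and 2783 against 177 CPM without), and that of 7 monocyte and progenitor markers was 358 against 110 CPM without TNF, and their part in this result was not tested. Of 18 listed besides Vegfa, 16 were tested with TNF, 14 higher and 1 lower, with a median log2 change of 0.50 against -0.01 over all genes, and 17 without TNF, 14 higher and 1 lower, with a median of 0.96. Over all genes tested, 26.5% were called higher and 30.8% lower with TNF, and 27.6% and 29.3% without. P4ha2, encoding a collagen prolyl hydroxylase, was at 385 ± 34.3 normalized counts in TNF-treated Klf6fl/fl:Lyz2cre cells against 61.0 ± 5.14 in Lyz2cre cells, and at 1019 ± 68.4 against 157 ± 12.0 without TNF. Ankrd37 was higher by 1.95 with TNF (limma, adjusted p = 6e-09) and by 1.06 without (limma, adjusted p = 4.4e-07). The lower gene without TNF was Ndrg1, at a log2 change of -1.44 (limma, adjusted p = 3.3e-13) against 0.52 with TNF (limma, adjusted p = 0.00026). The lower gene with TNF was P4ha1, at -0.23 (limma, adjusted p = 0.00011), and higher when scaled to total reads, against 0.96 without TNF (limma, adjusted p = 1.8e-12). Of 8 genes of oxygen sensing, 4 were higher and 1 lower in each condition, and scaled to total reads 8 and 0 with TNF and 6 and 1 without. Epas1, encoding HIF-2 alpha, was higher by 1.62 with TNF (limma, adjusted p = 1.2e-08) and by 0.94 without (limma, adjusted p = 5.4e-12), and Egln3, a prolyl hydroxylase gene that HIF itself induces, by 2.54 with TNF (limma, adjusted p = 2.3e-12) and 2.16 without (limma, adjusted p = 3.5e-11). Hif1a, encoding HIF-1 alpha, was lower with TNF at -0.15 (limma, adjusted p = 0.0059), a direction that the scaling decides, and higher without TNF at 0.31 (limma, adjusted p = 2.5e-05). The lower gene without TNF was the prolyl hydroxylase gene Egln2, at -0.26 (limma, adjusted p = 0.00012). Aldoa was left out because its symbol pairs with 2 identifiers.

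The 4 partners of PECAM-1 gave 3 tested genes with TNF, 1 higher and 1 lower, and 4 without, 1 higher and 2 lower. Scaled to total reads the counts were 3 and 0 with TNF, and 1 and 1 without. Cd38, whose product binds PECAM-1, was at 4644 ± 34.4 normalized counts in TNF-treated Klf6fl/fl:Lyz2cre cells against 1793 ± 159 in Lyz2cre cells (log2 change 1.38, limma, adjusted p = 4.8e-12). Without TNF it was at 322 ± 132 in Klf6fl/fl:Lyz2cre cells against 252 ± 23.3 in Lyz2cre cells and was not called (limma, adjusted p = 0.19). Ptpn6, encoding the phosphatase SHP-1 that PECAM-1 recruits, had log2 changes of -0.22 with TNF (limma, adjusted p = 0.00029), a direction that turned when scaled to total reads, and -0.43 without (limma, adjusted p = 3.9e-09). Without TNF, Cd177 was lower at -0.49 (limma, adjusted p = 0.013) and Ptpn11, encoding the phosphatase SHP-2, higher at 0.23 (limma, adjusted p = 8e-05).

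**Figure D4:**
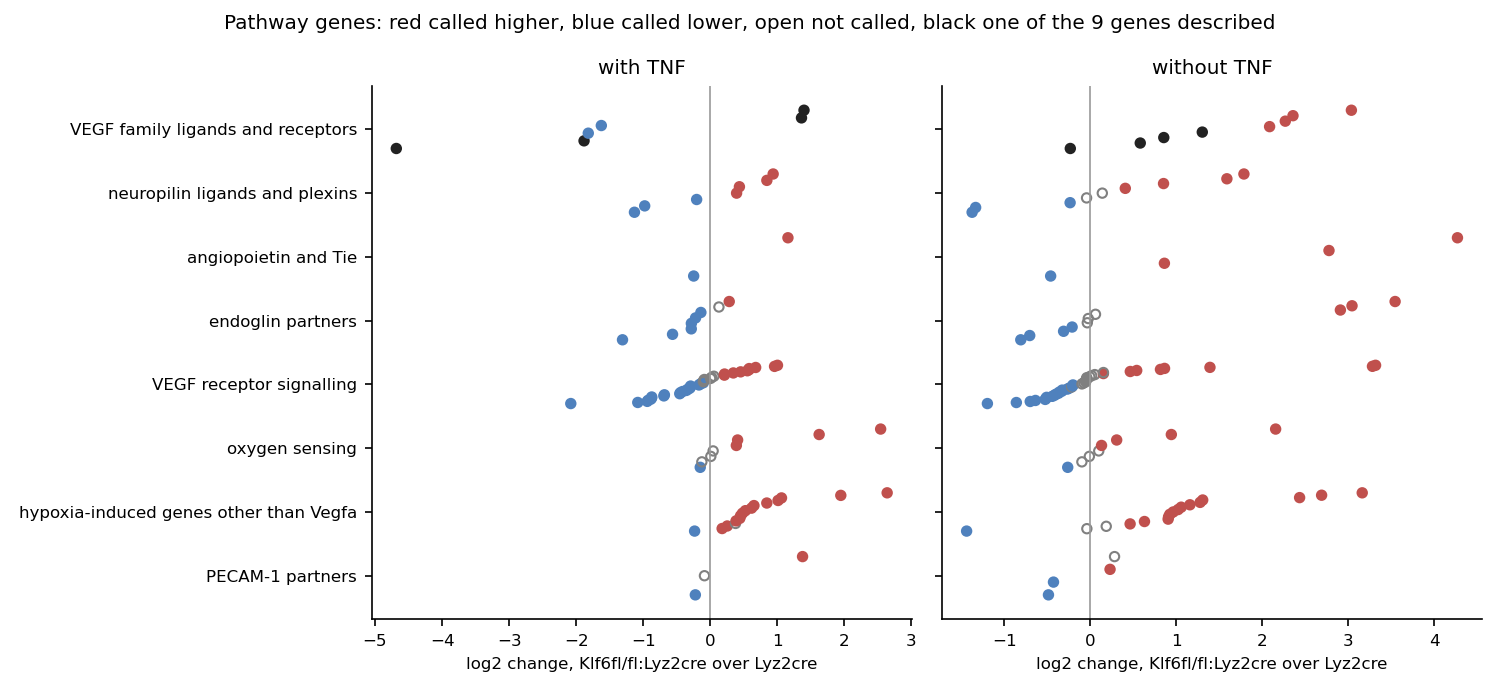
Log2 change, Klf6fl/fl:Lyz2cre over Lyz2cre, of every tested gene of the pathway lists with TNF (left) and without (right); red was called higher, blue lower, open circles not called, and black marks Vegfa, Vegfb, Kdr and Flt1 whether called or not. The hypoxia-induced genes lie mostly to the right of 0 in both panels, at medians of 0.50 and 0.96.

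The genes are named for endothelium, so markers of endothelium and of other cell types were read in the same libraries. The 18 endothelial markers summed to 45.1 to 48.8 CPM in TNF-treated Klf6fl/fl:Lyz2cre libraries, against 17.2 to 22.001 in TNF-treated Lyz2cre libraries, and to 54.9 to 68.0 in untreated Klf6fl/fl:Lyz2cre libraries, against 32.9 to 40.3 in untreated Lyz2cre libraries. Much of this was Vwf, which platelets and megakaryocytes also carry, and without it the sums were 6.20 to 8.30 and 4.55 to 5.54 with TNF and 25.4 to 34.9 and 16.1 to 19.1 without. With TNF, 14 of the 18 had an entry in the deposited values. Of the defining markers Cdh5, Vwf, Cldn5, Tie1 and Erg, Cldn5 and Erg had no entry with TNF. Tie1 had 8 reads in TNF-treated Klf6fl/fl:Lyz2cre cells and 1 in TNF-treated Lyz2cre cells. Kdr and Flt1 were highest in TNF-treated Lyz2cre cells, the group with the lowest sum of endothelial markers. There 8 of the 18 had no reads or no entry. Of the 3 endothelial markers tested with TNF, 2 were higher in Klf6fl/fl:Lyz2cre cells, Vwf at a log2 change of 1.13 (limma, adjusted p = 8.1e-08) and Icam2 at 0.55 (limma, adjusted p = 0.032), opposite in sign to Kdr and Flt1. The other, Cdh5, encoding VE-cadherin, was lower, as Kdr and Flt1 were. Cdh5 was at 6.28 ± 1.30 normalized counts in TNF-treated Klf6fl/fl:Lyz2cre cells against 30.8 ± 7.74 in Lyz2cre cells (log2 change -2.11, limma, adjusted p = 0.00024) and at 84.5 ± 28.3 against 32.5 ± 12.1 without TNF (log2 change 1.37, limma, adjusted p = 0.00061). With TNF it passed the filter through the Lyz2cre libraries. Of the 9 endothelial markers tested without TNF, 7 were higher and 1, Stab2, was lower, beside the higher Kdr, Pecam1 and Eng of the same libraries. Over all genes tested without TNF, 27.6% were called higher and 29.3% lower. Among the 7, Esam, Egfl7, Plvap and Ecscr averaged under 1 CPM in untreated Lyz2cre cells. They so passed the filter through the group in which they were higher, and their direction is no separate support. The part of endothelial markers in the results of either condition was not tested.

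Stromal markers differed more. The 12 stromal markers summed to 190 to 214 CPM in TNF-treated Klf6fl/fl:Lyz2cre libraries, against 40.1 to 52.0 in TNF-treated Lyz2cre libraries, and to 2709 to 2867 in untreated Klf6fl/fl:Lyz2cre libraries, against 161 to 186 in untreated Lyz2cre libraries. The 11 macrophage markers summed to 11029 to 11054 CPM with TNF in Klf6fl/fl:Lyz2cre libraries and 12184 to 12270 in Lyz2cre libraries, and to 8626 to 9226 and 14171 to 14257 without TNF. The 6 neutrophil markers were at 8.51 to 11.5 and 10.1 to 10.6 CPM with TNF, and at 255 to 287 and 280 to 308 without. The 7 monocyte and progenitor markers were at 111 to 124 and 95.9 to 117 CPM with TNF, and at 334 to 393 and 107 to 114 without. The 6 megakaryocyte and platelet markers were at 150.4 to 169 and 88.4 to 90.3 CPM with TNF, and at 164 to 231 and 146 to 159 without. Plasmacytoid dendritic markers stood at 36.2 to 41.2 and 51.7 to 54.3 CPM with TNF and at 143 to 153 and 169.5 to 182 without, and lymphoid markers did not exceed 3.28 CPM in any library. In each of these pairs the Klf6fl/fl:Lyz2cre range is the first. Most of the plasmacytoid dendritic sum was Tcf4, at means of 38.4 and 52.3 CPM with TNF and 148 and 176 without. Siglech had no entry with TNF and did not exceed 0.476 CPM in any untreated library. Most of the megakaryocyte and platelet sum was Pf4, at means of 157 and 87.8 CPM with TNF and 177 and 145 without. The stromal sum moved with genotype in the same direction as Vegfa in both conditions, as Vegfb and Nrp1 with TNF, and as Kdr, Pecam1 and Eng without TNF. It moved opposite to Kdr, Flt1 and Nrp2 with TNF and to Vegfb, Nrp1 and Nrp2 without. The monocyte and progenitor sum was higher without TNF in the same libraries as Vegfa, Kdr, Pecam1 and Eng. The part of these markers in the results was not tested.

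**Figure D5:**
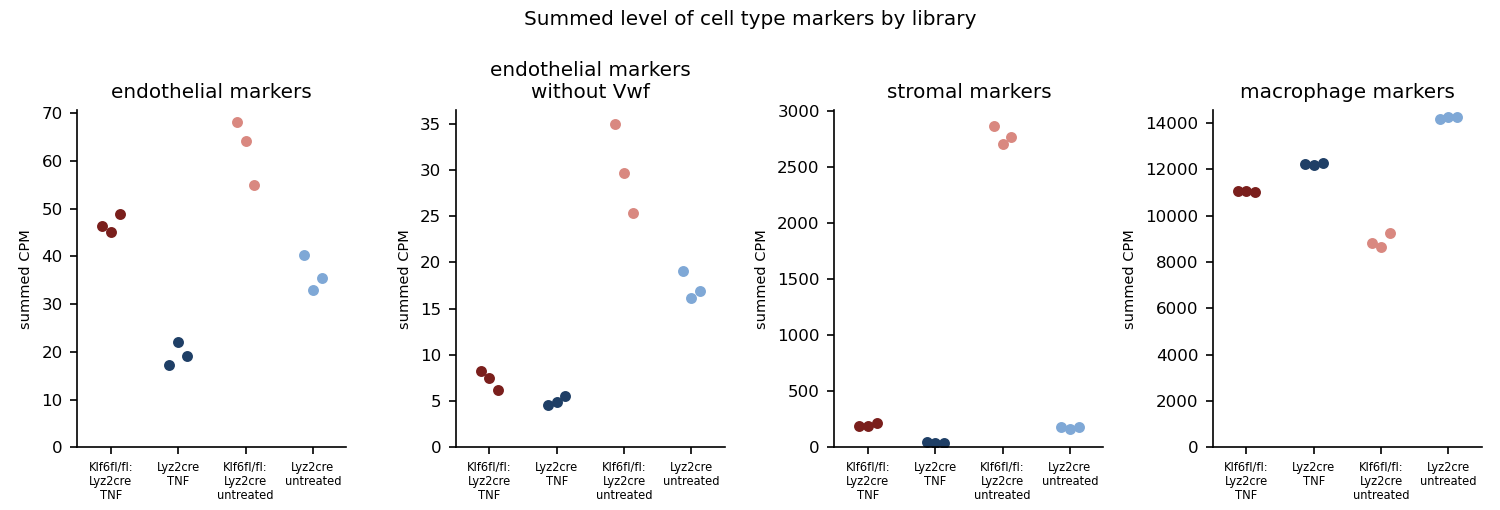
Summed CPM of endothelial markers, endothelial markers without Vwf, stromal markers and macrophage markers in each library (points; linear axes from 0; groups as labelled). Stromal markers reach 2709 to 2867 CPM in untreated Klf6fl/fl:Lyz2cre libraries and at most 214 elsewhere.

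For each of the 7 genes tested in both tables, the 3 genes whose pattern was most like its own were taken by Pearson r of log2(CPM + 1) over the 12 libraries. These libraries form 4 groups of 3 that share genotype and treatment, so the values describe likeness over 4 group levels. For Vegfa they were Emilin1 (r = 0.996), Nfe2 (r = 0.992) and Klhl22 (r = 0.992), and for Vegfb Wfdc17, Idh3g and St8sia4 (r = 0.993 each). For Kdr they were Ptk2 (r = 0.988), Gbp4 (r = 0.988) and Ripk2 (r = 0.984), and for Flt1 Xrn1 (r = 0.989), Pml (r = 0.984) and Sp110 (r = 0.983). The 3 genes most like Nrp1 were Man2a2, Hpgds and Got1 (r = 0.998 or above), and those most like Nrp2 were Zfp263, Dyrk2 and N4bp1 (r = 0.998 each). For Eng they were Ltbp2 (r = 0.992), Sirpb1c (r = 0.991) and Kif26b (r = 0.988). Within the set, Kdr and Flt1 had an r of 0.829, and Nrp1 and Nrp2 one of -0.994. Gbp4, an interferon-inducible GTPase gene, was at 4.57 CPM in TNF-treated Klf6fl/fl:Lyz2cre cells against 53.4 in TNF-treated Lyz2cre cells, and at 10.9 against 0.580 without TNF, the same order of the 4 groups as for Kdr.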

How the data were processed

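Libraries were made from total RNA with a stranded kit after ribosomal depletion, per the labels' protocols. The program Cufflinks and the builds GRCm39 and mm10 are named without version or role, per the submitters' processing notes, and no aligner, counter or annotation is stated in them. The signal values per gene that the authors deposited came in 2 tables, 1 per treatment, with no unit stated. Dividing each library's values by 1 constant gave whole reads for 100% of them (tolerance 0.001 reads, largest deviation 5.2e-05). These constants matched the inverse of size factors by median of ratios, computed in each table on its own. CPM and RPKM were computed from the whole reads, 16925666 to 23386570 per library. RPKM used the union of GENCODE vM21 exons (GRCm38).

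Genotypes were compared within each table with limma 3.58.1 (mean-variance trend, R 4.3.3) on log2(signal + 1), and the difference of effects over the 4 groups. Levels across tables, RPKM and marker sums were not tested. Motifs were exact matches on both strands. The 9 genes are all named, with up to 4 genes of each pathway list by size of change among those called, and the value of a named gene in the other condition, Ptk2 with Kdr, and genes alone behind a count of 1 were added after values were seen. Genes and lists were chosen with earlier results of these data known. Of the identifiers, 22867 of 22896 untreated and 21411 of 21437 with TNF paired with a symbol. The same fits were tested on simulated counts. Alternatives were edgeR 4.0.16 with TMM, DESeq2 1.42.0, a pseudocount of 10, no filter or 5 CPM, scaling to total reads, a replicate block and each library left out. Tables and figures used Python 3.11.15, numpy 2.4.6, pandas 2.3.3 and matplotlib 3.10.9. The labels name no molecular identifiers, so reads are not independent molecules. Near-identical copies could share reads.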

Additional observations from a re-analysis of the deposited data

Results flagged for a closer look

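The effect of genotype differed with and without TNF for 7 genes, by a test of the difference itself (limma over the 4 groups, log2 effect with TNF minus effect without). It was 0.5428 for Vegfa (adjusted p = 2.5e-06), 1.592 for Vegfb (adjusted p = 1.6e-08) and 0.8534 for Nrp1 (adjusted p = 5.4e-11). It was -3.185 for Kdr (adjusted p = 1.9e-13), -5.264 for Flt1 (adjusted p = 1.4e-07), -0.7254 for Nrp2 (adjusted p = 1.3e-10) and -0.562 for Eng (adjusted p = 2.3e-07). All 7 kept their sign and their call under the alternatives run, with adjusted p of at most 4.4e-05. Over all genes tested, 26.5% differed upward and 25.7% downward, so a call of this kind is common in these data, while 0.131% of genes had a difference as large as that of Flt1 and 1.35% one as large as that of Kdr. In each condition Flt1 passed the filter mainly through the group with the higher mean. With a pseudocount of 10 its difference was -4.19, so its place among all genes is no separate support.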

How the results depend on the processing

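Among the 9 genes, scaling to total reads changed the call of Vegfb without TNF and both the call and the sign of Eng with TNF. Under it Vegfb without TNF lost its call (-0.10, limma, adjusted p = 0.14). Eng with TNF turned to 0.24 and was called higher (limma, adjusted p = 0.00035). All genes called lower without TNF then numbered 2408, those called higher and lower with TNF 7038 and 1716, and those with a higher and lower difference 4781 and 1892. With each library left out in turn, Flt1 without TNF ranged from 0.23 to 1.03 and Eng with TNF from -0.1211 to -0.06293, and each gained a call without 1 library, as given with their values. No other member changed its call or sign under edgeR, DESeq2, the other pseudocount or filters, except that Flt1 could not be tested at 5 CPM without TNF or for the difference. TMM factors over the 12 libraries turned the TNF-treated over untreated level of Eng in Lyz2cre cells to 0.17 on the log2 scale, in place of -0.10, and TNF-treated Lyz2cre cells then ranked second for Eng and not last. They moved no other TNF ratio across 0 on that scale, but changed the size of others. With these factors Vegfa in Lyz2cre cells was at 64.3 CPM with TNF and 129 without, in place of 54.4 and 132. Kdr in Lyz2cre cells was at 115 and 18.3, in place of 97.3 and 18.6. The longest transcript in place of the exon union moved the RPKM of 8 of the 9 genes in each group by more than the SD, for example that of Nrp1 in untreated Klf6fl/fl:Lyz2cre cells to 129.7 RPKM in place of 48.3. A pseudocount of 10 moved Flt1 to -3.82 with TNF and -4.19 for the difference.

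Replicate numbers recur between groups. After removal of group means, same-numbered libraries correlated at -0.0378 to 0.158 untreated and -0.0295 to -0.0123 with TNF. Libraries of different numbers correlated at -0.230 to 0.114 untreated and -0.00153 to 0.0224 with TNF. With 3 libraries per group, deviations from a group mean are tied to each other, so this check cannot decide whether the numbers pair libraries. With the replicate block, 2988 genes were called higher and 3485 lower with TNF and 3526 and 3758 without, and 2918 and 2840 for the difference. No call of the 9 genes changed. Pecam1 with TNF, Tek and Flt1 outside TNF-treated Lyz2cre cells are limited by read number.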

Other observations

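The ligand and its main receptor can be set beside each other per length. The RPKM of Vegfa divided by that of Kdr was 12.1, 10.9 and 11.7 in TNF-treated Klf6fl/fl:Lyz2cre libraries, against 1.11, 1.46 and 1.03 in TNF-treated Lyz2cre libraries. Without TNF it was 9.85, 12.5 and 10.5 in Klf6fl/fl:Lyz2cre libraries, against 16.5, 15.4 and 13.0 in Lyz2cre libraries. The 3 TNF-treated Lyz2cre libraries lay below all others, near 1, while the other groups lay between 9.85 and 16.5. The ratio was not tested, and with the longest annotated transcripts its mean was 9.41 in Klf6fl/fl:Lyz2cre cells and 0.977 in Lyz2cre cells with TNF, and 8.93 in Klf6fl/fl:Lyz2cre cells and 12.2 in Lyz2cre cells without.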
